A study of Mus musculus with 4 samples.

Results

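The subunits of the oxidative phosphorylation system that are encoded in the nucleus were examined in mouse ventricle with and without the cation channel gene Trpc6. The members were the probes whose platform gene symbol begins with Ndufa, Ndufb, Ndufc, Ndufs or Ndufv, is Sdha, Sdhb, Sdhc, Sdhd or Cyc1, or begins with Uqcr, Cox4i, Cox5, Cox6, Cox7, Cox8 or Atp5, and assembly factors whose symbols begin with Ndufaf were left out. This choice by name gave 91 of 23473 gene probes and 86 of 19321 named genes. It follows the symbol and not the structure, so that Ndufa4, now assigned to complex IV, is counted in complex I, and the pseudogene Uqcrh-ps1 is counted in complex III. Of the 86 genes, 84 were kept, and all 84 were above background on all 4 arrays. The probes of Uqcrq, a small subunit of complex III, and of Cox8c, a testis isoform of complex IV, were not above background on any array and have no fold change.

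The groups were wild type and Trpc6-/-, a genetic deletion of Trpc6, with 2 ventricle samples each. All samples came from male 129SV mice, each was read in Cy5 on 1 array, and the labels give no age. The labels do not say that samples of 1 genotype came from separate animals, and the p-values then measure only how far these samples spread, which may be technical. The question behind the comparison is which ventricular transcripts differ when the channel is missing.

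Complexes I to IV of the inner mitochondrial membrane pass electrons from NADH and succinate to oxygen and pump protons, except for complex II, which pumps none. Complex V, the ATP synthase, uses the proton gradient to make ATP. The heart depends on this system for nearly all of its ATP, and cytochrome c oxidase, complex IV, carries heart and muscle isoforms of several of its small subunits. The mitochondrial genome encodes the catalytic core of complex IV and parts of complexes I, III and V, and these subunits were not analysed here.

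Between 76.3% and 83.2% of gene probes were above background on an array. The brightest member spot read 28986 to 42924 units and the brightest spot of an array 60305 to 65535 units, so no member was at the scanner's ceiling. Trpc6 itself was not above background on any array, with 80.5 and 89.2 units in wild type against 84.1 and 82.6 units in the knockout, and does not check the labels. All 10 cardiomyocyte markers were kept, and their summed normalized intensity was 269389 and 264350 units in wild type against 271695 and 274200 units in the knockout. Summed over the 5 kept red blood cell genes of 7, the intensity was 965 and 2820 units in wild type against 3420 and 3557 units in the knockout. All 5 lay higher in the knockout without overlap, with a median log2 fold change of 0.94, and wild-type array 1 was the lowest in the sum. The 6 fibroblast markers, 2 higher and 4 lower, summed to 3985 and 3745 units in wild type against 3294 and 2790 units in the knockout. The 6 endothelial markers, 1 higher and 5 lower, summed to 1225 and 1236 against 1065 and 1131 units. The 4 kept atrial genes of 5 summed to 3363 and 3355 against 4152 and 6297 units. The atrial sum is carried by Nppa, and the other 3 kept atrial genes lay lower in the knockout, so that the median of the list was -0.058. Of the 5 kept adipocyte genes of 6, 3 lay higher and 2 lower, and they summed to 8048 and 8602 against 9253 and 9991 units. Of the 6 skeletal muscle genes, Myh1, Myh2 and Myh4 were not above background. The 3 kept ones, 1 higher and 2 lower, summed to 76.8 and 77.1 against 70.2 and 67.5 units. The part of these differences in the values below was not tested, and in tissue RNA fewer cells of a type and less RNA per cell cannot be told apart.

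Promoter sequence, which the choice by symbol did not use, was examined next. RefSeq promoter windows of the build GRCm38.p6, from 250 bases before to 50 bases after each transcription start, were found for 68 of the 86 members. The core that the transcription factor NRF1 is known to bind, GCGCA and GCGC with any 1 base between them, was searched on both strands. It stood in the windows of 17 of the 68 members, 25% of them, against 5.19% of 27025 genes with such a window. By complex, 7 of 32 members of complex I, 2 of 3 of complex II, 1 of 5 of complex III, 1 of 13 of complex IV and 6 of 15 of complex V held it. Sdha, the flavoprotein of complex II, and Ndufb4, an accessory subunit of complex I, are shown because they held most matches, 3 each. Atp5md is shown because it had the smallest p of all members, and it held none. The 250 bases before the start are given 5′ to 3′, all 3 on the minus strand, at chr13:74350241-74350490, chr16:37654369-37654618 and chr19:47090648-47090897, with the matched letters in capitals.
Sdha: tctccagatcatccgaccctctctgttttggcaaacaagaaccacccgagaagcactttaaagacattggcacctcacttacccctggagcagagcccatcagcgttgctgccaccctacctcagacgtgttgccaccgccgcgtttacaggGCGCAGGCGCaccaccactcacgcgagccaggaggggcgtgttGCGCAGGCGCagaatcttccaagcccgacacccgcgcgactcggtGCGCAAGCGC
Ndufb4: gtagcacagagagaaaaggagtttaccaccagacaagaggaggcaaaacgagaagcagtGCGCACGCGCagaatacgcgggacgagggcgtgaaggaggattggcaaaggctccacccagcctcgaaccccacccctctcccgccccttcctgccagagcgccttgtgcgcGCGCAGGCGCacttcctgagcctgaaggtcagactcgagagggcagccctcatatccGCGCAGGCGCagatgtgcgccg
Atp5md: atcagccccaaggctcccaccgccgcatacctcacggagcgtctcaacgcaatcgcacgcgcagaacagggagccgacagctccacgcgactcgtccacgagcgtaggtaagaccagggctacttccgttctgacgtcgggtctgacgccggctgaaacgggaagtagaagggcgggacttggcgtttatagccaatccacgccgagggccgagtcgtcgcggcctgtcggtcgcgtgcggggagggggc
The matches in Sdha began at -98, -55 and -10 relative to the start, and those in Ndufb4 at -191, -79 and -22. Uqcrc1 of complex III was the only member with both a match and an unadjusted limma p under 0.05. Its 2 matches began 5 and 30 bases after the first base of the transcript and are shown with 8 bases on each side. The labels below give these distances.
Uqcrc1, base 5: tccttacaGCGCTTGCGCctcagact
Uqcrc1, base 30: tccgctctGCGCATGCGCagcgcggc
Each set of letters was counted by itself, without regard to overlaps between them. The letters AAGATGGCG, bound by YY1, stood in 7 members (10.3%) against 1.64% of all genes. The letters CCGGAAGT, bound by GABP, stood in 5 members (7.35%) against 4.31%. TCAAGGTCA, bound by the estrogen-related receptors, stood in 2 members (2.94%) against 0.466%. In the windows of 43 assembly factors, described at the end, the NRF1, YY1 and GABP letters stood in 11.6%, 9.30% and 18.6%. A match is a stretch of letters and not a shown binding site. The 17 members with the NRF1 letters had a median log2 fold change of -0.0051, 8 higher and 9 lower in the knockout, and the 51 without them one of 0.033, 30 higher and 21 lower.

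Values below are normalized log2 intensities, and a fold change is the knockout mean minus the wild-type mean of these values, given with its limma standard error and n = 2 arrays per group. The subunits were divided between higher and lower in the knockout, and the differences were small. Of the 84 members, 46 lay higher, 37 lower and 1, Cox4i1, level, with a median log2 fold change of 0.019, or 1.30%, against 0.0017 over all 15955 genes tested. The values ran from -0.29 for Uqcrc2, a core protein of complex III, to 0.25 for Atp5md, a small membrane subunit of the ATP synthase. By limma with Benjamini-Hochberg adjustment over all genes, 0 members passed an adjusted p of 0.05, the smallest being 0.727, and 0 of all genes (0%) did. An unadjusted limma p under 0.05 was found for 6 of 84 members (7.14%), against 6.74% of all genes, a share near the background. Of these 6, 4 lay higher and 2 lower, where 3.67% of all genes were called higher and 3.08% lower. With each array scaled to a common median in place of quantile normalization, 1 member was called higher and 4 lower, against 2.81% and 3.82% of all genes, and 36 members lay higher and 48 lower. The groups did not overlap for 27 of the 84 members, 15 higher and 12 lower, or 32.1%, against 36.8% of all genes (19.4% higher and 17.4% lower). With median scaling these shares were 22.6% of members and 39.4% of all genes. In the authors' deposited table they were 38.1% and 27.3%, and 57 members lay higher and 27 lower. With local background subtracted they were 46.4% and 38.8%, and 36 members lay higher and 48 lower.

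Most subunits were among the brightest probes of the arrays. Of 317 genes with a mean level over 11 on the log2 scale, 68 were members. In that band 5 of the 68 members had an unadjusted p under 0.05, against 15.8% of the 317 genes. The median standard error was 0.067 for members and 0.049 for all genes. The 95% interval of the fold change lay within 1.2-fold in either direction for 39 of the 84 members and within 1.5-fold for 82. The exceptions were Uqcrc2, with an interval of -0.82 to 0.23, and Ndufa11b, a gene model whose symbol resembles Ndufa11, with one of -0.62 to 0.06. Differences smaller than these intervals were not resolved with 2 arrays per group.

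**Figure D1:**
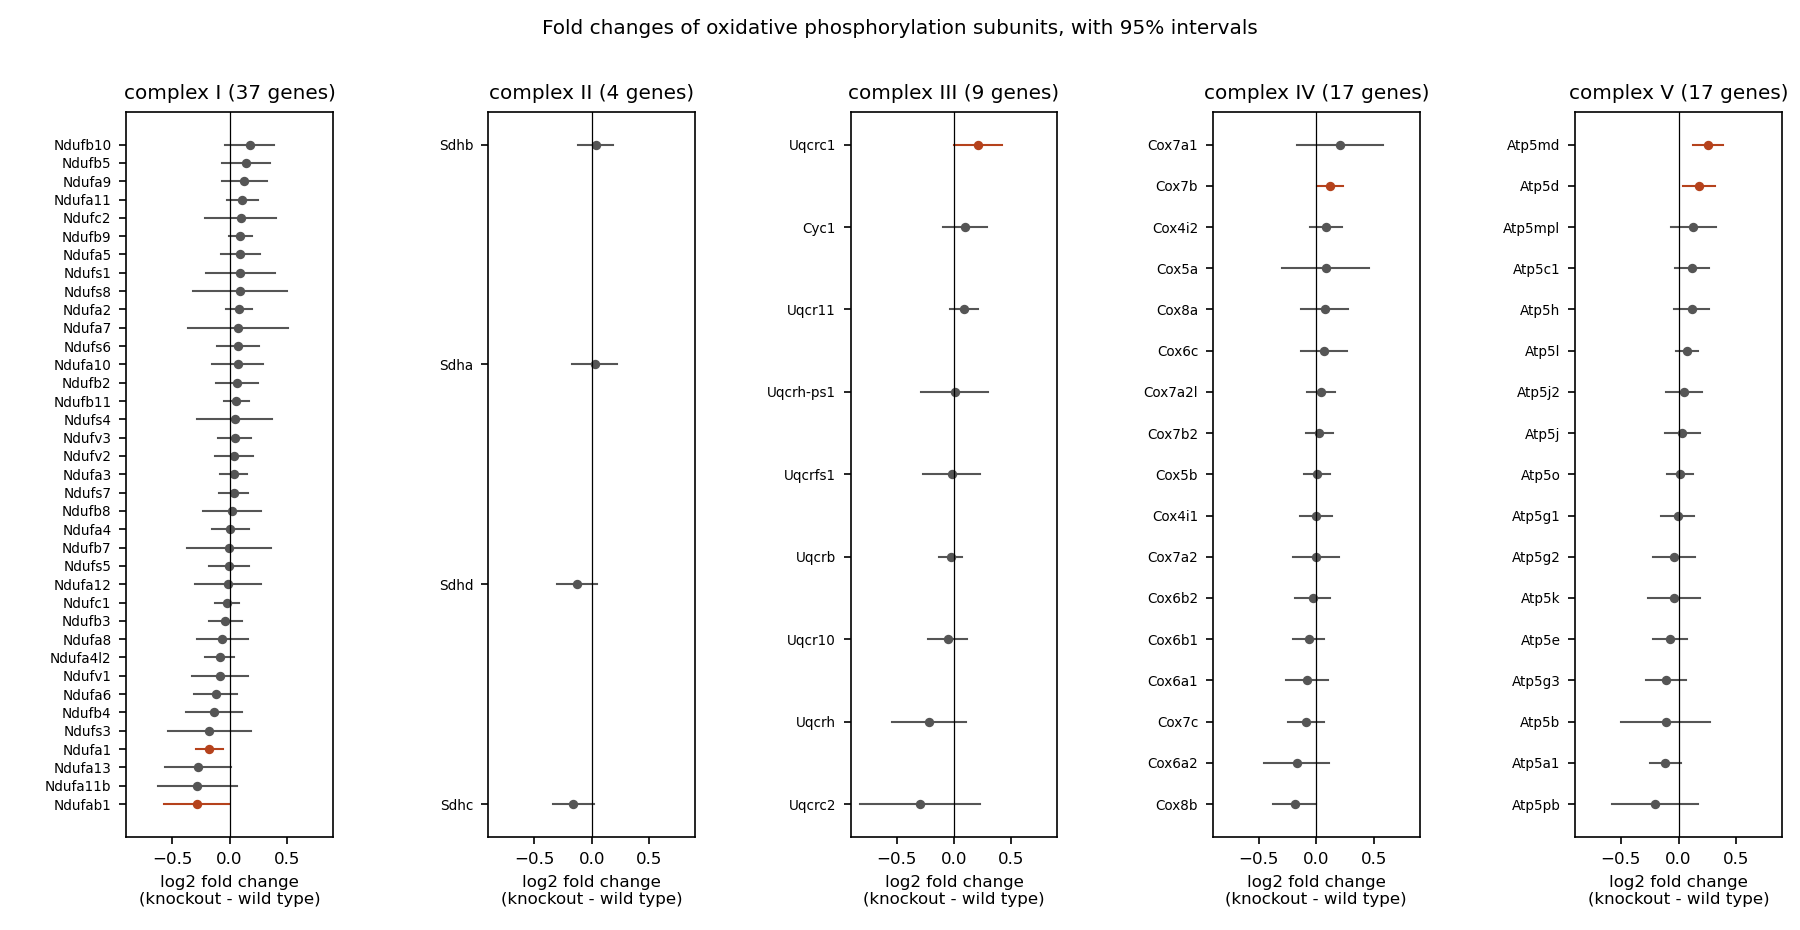
Log2 fold change, knockout minus wild type, of each of the 84 kept subunits by complex on the horizontal axis, with lines for the 95% interval of the limma fit. The 6 members with an unadjusted p under 0.05 are orange-red, and the intervals of the other 78 members cross 0, those of Uqcrc2 and Ndufa11b reaching furthest to the left.

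Complex I oxidises NADH and holds more members than any other complex, 37 of the 84 genes. Of these, 22 lay higher and 15 lower, with a median of 0.036. An unadjusted p under 0.05 was found for 2 genes, both lower in the knockout, or 5.41% against 6.74% of all genes. The groups did not overlap for 12, 6 in each direction, or 32.4% against 36.8% of all genes. Ndufa1, an accessory subunit encoded on the X chromosome, read 12.70 and 12.62 in wild type against 12.49 and 12.48 in the knockout. Both knockout arrays lay below both wild-type arrays. The log2 fold change was -0.18 ± 0.04, 1.13-fold lower, with an unadjusted limma p of 0.0134 and an adjusted p of 0.727. Without either knockout array the p was 0.0651 or 0.0696, at fold changes of -0.18 and -0.17. With median scaling Ndufa1 was at -0.19 ± 0.04 with an unadjusted limma p of 0.00839. Ndufab1, the mitochondrial acyl carrier protein that also serves fatty acid synthesis, read 6.75 and 6.96 in wild type against 6.67 and 6.47 in the knockout. The knockout array nearest to wild type lay only a little below wild-type array 1. The fold change was -0.28 ± 0.11, 1.22-fold lower, with an unadjusted p of 0.0490 by limma, and -0.30 with a p of 0.0404 under median scaling. It is a dim probe of 116 to 165 units, and without wild-type array 2 or without knockout array 2 it was at -0.18 each time, with p values of 0.149 and 0.208.

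The next members in order of p lay in both directions. Ndufb9, an accessory subunit of the membrane arm, read 13.02 and 13.02 against 13.12 and 13.10, a difference of 0.10 ± 0.04. Ndufb10, another membrane arm subunit, read 12.94 and 12.73 against 13.01 and 13.02, or 0.18 ± 0.08. Ndufa11, which sits in the membrane arm as well, was at 0.11 ± 0.05. In these 3 genes both knockout arrays lay above both wild-type arrays. With median scaling Ndufb9 read 12.99 and 13.08 against 13.16 and 13.03, with overlap, a difference of 0.06 ± 0.06. Ndufb10 and Ndufa11 kept their separation. Ndufa13, also known as GRIM-19, read 12.86 and 13.05 against 12.80 and 12.57, a difference of -0.27 ± 0.11, again without overlap. A second, dim probe named Ndufa13, at 116 to 133 units, went the other way at 0.17 ± 0.04, so the 2 probes disagree in sign. Ndufb5 also has 2 probes that disagree, at 0.15 ± 0.08 for the brighter and -0.08 ± 0.14 for the dimmer.

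The core subunits of complex I, which carry its flavin and iron-sulphur clusters, showed no shared direction. Ndufv1, which binds the flavin that takes up electrons from NADH, was at -0.09 ± 0.09, and its partner Ndufv2 at 0.04 ± 0.06. Ndufs1, the largest iron-sulphur protein of the complex, was at 0.09 ± 0.11. Ndufs7 and Ndufs8, iron-sulphur subunits near the site that reduces ubiquinone, were at 0.04 ± 0.05 and 0.09 ± 0.15. Ndufs3, a core subunit without a cluster, read 12.49 and 12.81 in wild type against 12.58 and 12.37 in the knockout. Its groups overlapped, and the difference of -0.18 ± 0.13 was close to its error. The smallest unadjusted p among these 6 was 0.256.

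Complex II, succinate dehydrogenase, is also an enzyme of the citric acid cycle, and all 4 of its subunits were kept. Its median was -0.050, 2 lay higher and 2 lower, and 0 had an unadjusted limma p under 0.05. The catalytic subunits differed little. Sdha, which binds the flavin, read 12.59 and 12.54 in wild type against 12.50 and 12.68 in the knockout, a difference of 0.03 ± 0.07. Sdhb, the iron-sulphur protein, read 12.47 and 12.36 against 12.41 and 12.49, or 0.03 ± 0.06. In Sdha the knockout arrays lay on both sides of wild type. In Sdhb knockout array 1 lay between the wild-type arrays and knockout array 2 above them. The membrane anchors lay lower. Sdhc read 12.18 and 12.22 in wild type against 12.12 and 11.96 in the knockout, a difference of -0.16 ± 0.07 with an unadjusted limma p of 0.0657. Sdhd read 11.85 and 11.72 against 11.61 and 11.70, or -0.13 ± 0.07 with a p of 0.119. Neither anchor's groups overlapped, though Sdhd differed by only 0.014 between wild-type array 2 and knockout array 2. With median scaling Sdhd read 11.83 and 11.76 against 11.68 and 11.63. Its difference was then -0.14 ± 0.05 with an unadjusted limma p of 0.0352, and that of Sdhc -0.17 ± 0.09 with a p of 0.115. Whether the anchors differ from the catalytic pair was not tested.

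Complex III passes electrons from ubiquinol to cytochrome c. Of its 9 kept members, 4 lay higher and 5 lower, with a median of -0.020. An unadjusted p under 0.05 was found for 1 (11.1%, against 6.74% of all genes). The core proteins Uqcrc1 and Uqcrc2 lay on opposite sides. Uqcrc1 read 12.64 and 12.49 in wild type against 12.70 and 12.84 in the knockout, without overlap. Its fold change was 0.21 ± 0.08, 1.15-fold higher, with an unadjusted p of 0.0493 and an adjusted p of 0.739 by limma. It was at 0.13 with a p of 0.156 without wild-type array 2, and at 0.14 with a p of 0.214 without knockout array 2. With median scaling Uqcrc1 was at 0.18 ± 0.06 with an unadjusted limma p of 0.0286. Uqcrc2 read 13.20 and 13.66 in wild type against 13.31 and 12.96 in the knockout, so that the groups overlapped and wild-type array 2 was the highest. Its difference of -0.29 ± 0.20 was the lowest of all members, and its range over the 4 arrays, 0.70, the widest. Without wild-type array 2 it was -0.06 and without wild-type array 1 -0.52, and a second probe gave -0.20 ± 0.33.

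The electron carriers within the complex differed little. Cyc1, cytochrome c1, read 12.09 and 12.03 against 12.24 and 12.07, a difference of 0.10 ± 0.07. Uqcrfs1, the Rieske iron-sulphur protein, read 12.68 and 12.56 against 12.72 and 12.49, or -0.02 ± 0.09. Their wild-type and knockout arrays overlapped. Uqcrb, a small accessory subunit, had the tightest values of all members, 13.17 and 13.20 against 13.16 and 13.16, a range of 0.038. With median scaling it read 13.14 and 13.29 against 13.18 and 13.08, so the narrow range depended on quantile normalization. The hinge protein Uqcrh was at -0.22 ± 0.12 and the probe of its pseudogene Uqcrh-ps1 at 0.01 ± 0.11. Near-identical copies can share a probe's signal, and these values are uncertain for that reason.

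Complex IV, cytochrome c oxidase, reduces oxygen to water. Of its 17 kept members 9 lay higher, 7 lower and 1 level, with a median of 0.0083, and 10 had an interval within 1.2-fold in either direction. The lone member with an unadjusted p under 0.05 (5.88%, against 6.74% of all genes) was Cox7b, a small membrane subunit. It read 13.97 and 14.00 in wild type against 14.08 and 14.13 in the knockout. All values lay within 0.16 of each other, and the groups did not overlap. The fold change was 0.12 ± 0.04, 1.09-fold higher, with an unadjusted p of 0.0384 and an adjusted p of 0.727 by limma. With median scaling it was 0.04 with a p of 0.621, and leaving out any 1 array gave p values from 0.0639 to 0.184. Cox5a and Cox5b, subunits that bear on the matrix side, were at 0.08 ± 0.14 and 0.01 ± 0.04. Cox4i1, the main isoform of subunit 4, read 14.55 and 14.47 in wild type against 14.47 and 14.55 in the knockout, a difference of 0.00 ± 0.05.

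The values of Cox4i1 show how quantile normalization acts on the brightest probes. It gives a probe the value that belongs to its rank on the array, and few probes share these levels, so values recur exactly. At least 2 arrays held the same value in 15 of the 84 members, against 107 (0.671%) of all genes tested. With median scaling the 4 values of Cox4i1 were 14.52, 14.63, 14.43 and 14.53, and its difference was -0.09 ± 0.06. Of the 84 members, 73 had the same sign under both scalings, and the largest shift of a fold change between them was the 0.09 of Cox4i1.

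Several subunits of complex IV exist as isoforms with tissue preferences. The heart and skeletal muscle isoforms did not lie on 1 side. Cox8b, the heart form of subunit 8, read 13.61 and 13.74 in wild type against 13.55 and 13.43 in the knockout. Its groups did not overlap, and the difference was -0.19 ± 0.07 with an unadjusted limma p of 0.0516. With median scaling its groups overlapped, at -0.22 ± 0.12. Its ubiquitous counterpart Cox8a was at 0.07 ± 0.08. Cox6a2, the heart form of subunit 6A, read 13.04 and 13.24 against 13.08 and 12.86, overlapping, with a difference of -0.17 ± 0.11, and its ubiquitous counterpart Cox6a1 was at -0.08 ± 0.07. Cox7a1, the heart form of subunit 7A, read 12.77 and 12.36 in wild type against 12.79 and 12.76 in the knockout. Here 3 arrays stood together and wild-type array 2 lay apart. The difference of 0.21 ± 0.14 became 0.01 without that array and 0.41 without wild-type array 1. Cox7a2, the ubiquitous form, was at 0.00 ± 0.07, and Cox7a2l, which serves the joining of complexes into supercomplexes, at 0.04 ± 0.05. Differences between isoforms of a pair were not tested.

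The isoforms used mainly in other tissues were dim. Some probes of complex I, such as that of Ndufab1, were dim as well, so a low signal does not by itself show tissue use. Cox4i2, a lung isoform linked to low oxygen, read 6.83 and 6.74 in wild type against 6.90 and 6.84 in the knockout, a difference of 0.08 ± 0.05 without overlap. The testis form Cox6b2 has 3 probes at -0.03 ± 0.06, -0.02 ± 0.04 and 0.00 ± 0.04, and Cox6b1, the ubiquitous form, was at -0.07 ± 0.05. Cox7b2, also of testis, was at 0.03 ± 0.04. The intensity offset of 50 units compresses the fold changes of such dim probes.

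**Figure D2:**
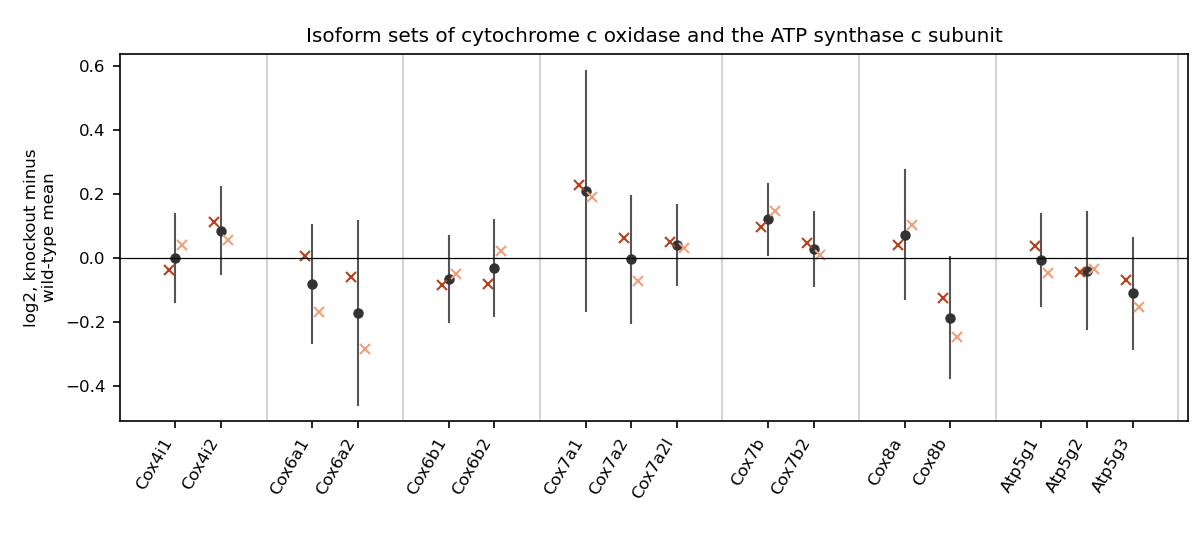
Log2 difference from the wild-type mean for 16 isoforms of complex IV subunits and of the ATP synthase c subunit, with dots and lines for the limma fold change and its 95% interval and crosses for the 2 knockout arrays (dark, array 1, and light, array 2). Cox8b and Cox6a2 lie below 0 and Cox7a1 above it, and only Cox7b has an interval that leaves out 0.

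Complex V makes ATP from the proton gradient through a catalytic head, a rotating stalk with a membrane ring, and a fixed outer stalk. Of its 17 kept members 9 lay higher and 8 lower, with a median of 0.015. An unadjusted p under 0.05 was found for 2, both higher in the knockout, or 11.8% against 6.74% of all genes. The groups did not overlap for 5 higher and 1 lower members, or 35.3% against 36.8% of all genes. Atp5md, also known as DAPIT, a small subunit that takes part in dimers of the enzyme, read 12.93 and 13.01 in wild type against 13.25 and 13.20 in the knockout. The gap between the groups, 0.19, was wider than the spread within either. Its fold change was 0.25 ± 0.05, 1.19-fold higher, with a 95% interval of 0.12 to 0.38, an unadjusted limma p of 0.00478 and an adjusted p of 0.727. With median scaling it was 0.21 with a p of 0.0688. In the authors' deposited table its values were 7578 and 7199 in wild type against 9265 and 8855 in the knockout, a ratio of 1.23.

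Atp5d, the delta subunit of the central stalk, read 12.79 and 12.72 in wild type against 12.97 and 12.89 in the knockout, without overlap. Its fold change was 0.18 ± 0.05, 1.13-fold higher, with an unadjusted p of 0.0244 and an adjusted p of 0.727 by limma. It was 0.14 without wild-type array 2 and without knockout array 1, with p values of 0.0824 and 0.127, and 0.12 with median scaling, with a p of 0.180. The gamma subunit Atp5c1, the shaft of the same stalk, read 14.00 and 13.97 against 14.05 and 14.17, a difference of 0.12 ± 0.05. Both knockout arrays lay above wild type, by 0.05 at the narrowest point. With median scaling Atp5c1 read 13.94 and 14.08 against 14.04 and 14.06, with overlap, a difference of 0.04 ± 0.06.

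The subunits of the catalytic head lay on the other side of 0. So did Atp5e, the epsilon subunit of the central stalk, at -0.08 ± 0.06 with overlap. The alpha subunit Atp5a1 read 13.83 and 13.76 in wild type against 13.64 and 13.72 in the knockout, a difference of -0.11 ± 0.05 without overlap and with an unadjusted limma p of 0.0823. The beta subunit Atp5b, which forms ATP, read 14.47 and 14.14 against 14.32 and 14.07, or -0.11 ± 0.14, with overlap. Atp5pb, the b subunit of the outer stalk, read 13.66 and 14.07 in wild type against 13.66 and 13.66 in the knockout. Wild-type array 2 was the high one there, and the difference of -0.20 ± 0.14 became 0.00 without it. The 3 genes of the c ring, which encode the same mature protein, were at -0.01 ± 0.05 for Atp5g1, -0.04 ± 0.07 for Atp5g2 and -0.11 ± 0.06 for Atp5g3. Atp5g3 was the brightest member, with 15.05 and 15.19 against 15.05 and 14.97, and its groups touched at 1 shared value.

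**Figure D3:**
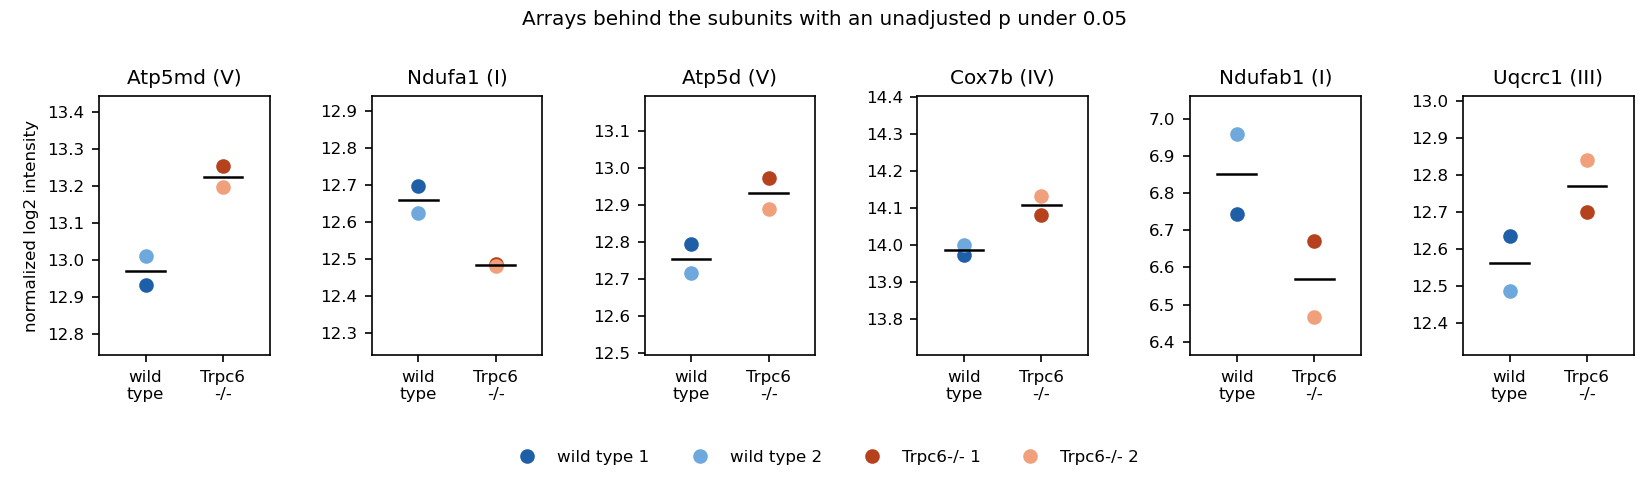
Normalized log2 intensity of the 6 subunits with an unadjusted p under 0.05, 1 point per array and a bar for each group mean, on vertical axes of equal span. Atp5md has the widest gap between the groups, and the nearest arrays of Ndufab1 and Uqcrc1 are 0.07 and 0.06 apart.

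The subunits as a whole varied as much between arrays of 1 genotype as between genotypes. The median deviation of the 84 members from each gene's mean over the arrays was 0.015 and -0.038 on the wild-type arrays and 0.030 and -0.017 on the knockout arrays, with a pooled SD of 0.036. Over all members array 1 lay above array 2 in both groups. In complex I the medians were 0.031 and -0.057 against 0.030 and -0.030, and in complex IV 0.014 and -0.023 against 0.030 and -0.0061. In complex V knockout array 1 lay apart at 0.039, with -0.012 and -0.030 in wild type and -0.022 on knockout array 2. Complex II went the other way in the knockout, with 0.048 and -0.021 in wild type against -0.051 and 0.019, and complex III was at -0.014 and -0.011 against 0.034 and -0.040. Wild-type array 2 was the array farthest from the other 3 in 39 of the 84 members (46.4%), against 36.3% of all genes, low in 26 and high in 13. Leaving it out moved the median of the members from 0.019 to -0.019. The scanner headers give straight lines that relate the gains, and the slope from the first to the second gain was 0.504 and 0.519 on the wild-type arrays and 0.478 on both knockout arrays, so this setting cannot be told apart from genotype.

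**Figure D4:**
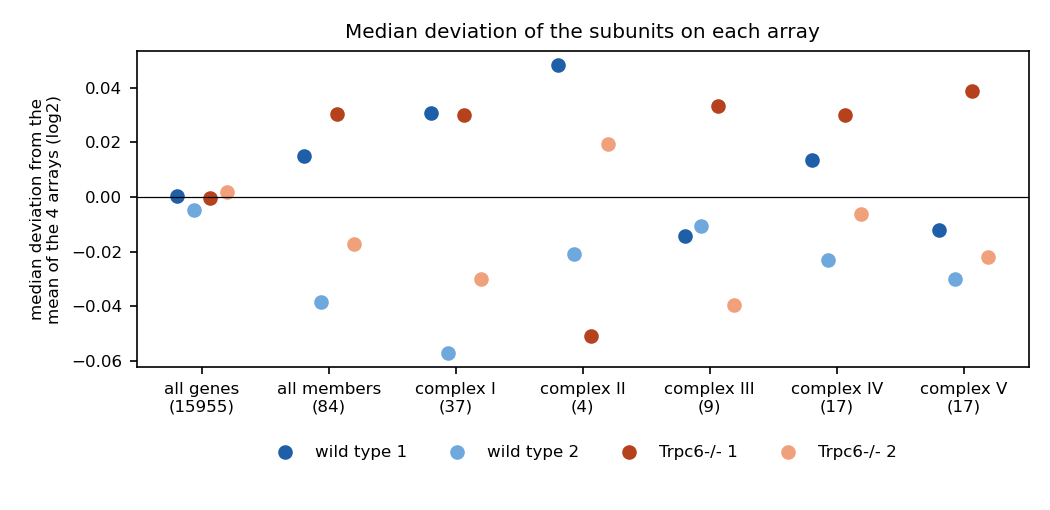
Median deviation from each gene's mean over the 4 arrays, in log2 units, for all 15955 genes, the 84 subunits and each complex, with 1 point per array. Among the subunits the arrays of 1 genotype stand as far apart as the genotypes do, with wild-type array 2 at -0.057 in complex I and knockout array 1 at 0.039 in complex V.

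Assembly factors, which insert cofactors and join subunits but are not part of the finished complexes, lay mostly higher in the knockout, though none passed the test over all genes. Of 57 such genes listed, 49 were kept, of which 32 lay higher and 17 lower, with a median of 0.050. An unadjusted limma p under 0.05 was found for 11, all higher in the knockout, 22.4% of the list against 3.67% of all genes. The smallest adjusted p was 0.727. The list was described here as counts, and the difference from the subunits was not tested. Most of these genes were of middle brightness, and in the band from 7 to 9 on the log2 scale 8 of 29 were called higher, against 7.27% of all genes in that band. By array, the medians were 0.0094 and -0.083 in wild type against 0.064 and 0.0093 in the knockout, so that wild-type array 2 lay low and wild-type array 1 beside knockout array 2. Without wild-type array 2 the median of the list was -0.0087, and without wild-type array 1 it was 0.11.

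The factors called higher serve complex I and complex IV. Of 14 kept factors of complex I, 11 lay higher, 5 of them with an unadjusted p under 0.05, where 3.67% of all genes were called higher. Ndufaf4, an early-acting factor, read 8.90 and 8.84 in wild type against 9.19 and 9.26 in the knockout. Its groups were well apart, and the fold change was 0.36 ± 0.05 with an unadjusted limma p of 0.00106. Its p stayed under 0.05 in all 16 alternative settings. Acad9, an acyl-CoA dehydrogenase that also serves complex I assembly, read 7.65 and 7.49 against 7.88 and 7.87, or 0.31 ± 0.07. Of 21 kept factors of complex IV, 14 lay higher, 6 of them with an unadjusted p under 0.05, against the same 3.67% of all genes. Cox10 and Cox15, successive enzymes in the making of heme A, are among these. Cox10 read 8.43 and 8.30 in wild type against 8.74 and 8.75 in the knockout, a difference of 0.38 ± 0.06. Cox15 read 7.45 and 7.33 against 7.65 and 7.76, or 0.31 ± 0.07. In both genes the knockout arrays lay above both wild-type arrays. With local background subtracted Acad9 and Cox15 were at -0.27 and -1.02, on the other side of 0. Of the 3 kept factors of complex II, 6 of complex III and 5 of the ATP synthase, none had an unadjusted limma p under 0.05.

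**Figure D5:**
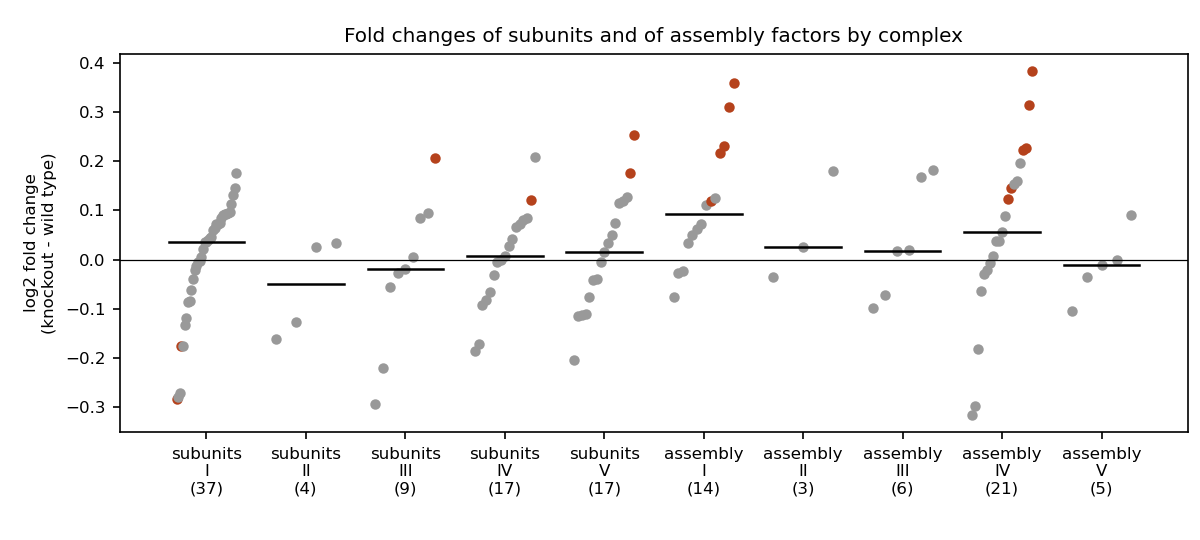
Log2 fold change, knockout minus wild type, of the subunits (left) and of the assembly factors (right) of each complex, with 1 point per gene, orange-red for an unadjusted p under 0.05 and a bar for the median. Among the assembly factors all 11 orange-red points lie above 0, in complexes I and IV, while those of the subunits lie on both sides.

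Of the mobile carriers between complexes and the enzymes that make them, 15 genes were kept, 5 higher and 10 lower. Coq5, a methyltransferase of ubiquinone synthesis, read 9.32 and 9.34 in wild type against 9.74 and 9.61 in the knockout, a difference of 0.35 ± 0.06 with an unadjusted limma p of 0.00252. Etfa, a subunit of the flavoprotein that brings electrons from fatty acid oxidation, read 12.29 and 12.55 against 11.98 and 11.97, or -0.45 ± 0.09 with a p of 0.00616. Neither gene's groups overlapped. With local background subtracted Etfa was at 5.04. Of 17 regulators of mitochondrial biogenesis 12 lay higher and 5 lower, with a median of 0.054. Twnk, the helicase of mitochondrial DNA, was the only one of the 17 with an unadjusted limma p under 0.05, at 7.25 and 7.33 in wild type against 7.43 and 7.58 in the knockout, a difference of 0.22 ± 0.07. It was at -0.39 with local background subtracted, and its p was 0.0891 without wild-type array 1 and 0.114 without knockout array 2.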

How the data were processed

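RNA was amplified with amino allyl nucleotides, coupled to Cy5 and hybridised to Toray arrays, per the labels' protocols. The authors deposited scanner files with the median intensity of each of 27456 spots on a linear scale, and a table of processed values that is a straight line of these medians on every array: a constant of 78.4 to 87.7 units was subtracted and each column scaled to a median of 25. The rule that joins the scanner gains was not given in the sources used here.

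Background correction of the spot medians used normexp in limma 3.58.1 (R 4.3.3, offset 50, fitted on all spots), followed by averaging per probe and quantile normalization of log2 values. Probes above the 95th percentile of blank and negative control spots on at least 2 arrays were kept, and a gene with several was represented by its brightest. Symbols came from the platform annotation, which named 20690 of 23473 probes. The comparison used lmFit and eBayes without covariates (2 residual and 2.49 prior degrees of freedom), adjusted over 15955 genes, and p-values are two-sided. An exact permutation of 2 against 2 cannot go below 0.333. The steps were tested on simulated data.

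The members, the gene lists, the brightness bands and the rule for naming genes were chosen with earlier results of these data known. Named were up to 3 members per direction and complex by p, core subunits, isoform sets, members with disagreeing probes and those not above background, and of other lists up to 2 genes per direction. Ndufa11b, Uqcrb, Uqcrh-ps1, Cox7a2l, Atp5e and the promoters shown were chosen after their values were seen. Alternatives changed the background correction, normalization, filter, probe choice, variance model and source of values, added the replicate number, or left out an array.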

Additional observations from a re-analysis of the deposited data

How the results depend on the processing

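With 2 arrays per group and dim probes near background, small differences were not resolved. With an array left out, the lone array of its group is assumed to vary like the other group. Of the 84 members, 6 had an unadjusted p under 0.05. The count was 3 with a normexp offset of 16, 1 with an offset of 0, 1 in the authors' table, 13 with local background subtracted, and 2 to 25 with an array left out, the 25 without wild-type array 1 (29.8% of members against 14.7% of all genes) and the 2 without knockout array 2. The members without overlap numbered 46 to 65 of 84 with an array left out, 54.8% to 77.4% of members against 62.8% to 75.7% of all genes. Over all genes, 1 passed the adjusted threshold with local background subtracted (Dnajb4), and 0 to 1 with an array left out (Hba-a2 without wild-type array 2).

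Subtracting the local background spread the log2 fold changes of all genes to an SD of 0.62 from 0.10. It turned Atp5md to -1.10, Uqcrc1 to -0.19, Ndufab1 to 1.0, Acad9 to -0.27, Cox15 to -1.02, Twnk to -0.39 and Etfa to 5.04. Log2 local background and log2 spot signal correlated at 0.931 to 0.967 across the spots of an array. The cause was not tested. The median of members was then -0.13, and those of complexes I, III, IV and V were -0.087, -0.19, -0.091 and -0.20. In the authors' table the median was 0.075, and 0.10, 0.011, 0.041, 0.047 and 0.068 for complexes I to V. With median scaling it was -0.041 for complex IV and -0.020 for complex V. With an array left out the medians ran from -0.019 to 0.044 for all members, -0.022 to 0.079 for complex I, -0.080 to -0.0041 for complex II, -0.027 to 0.013 for complex III, -0.021 to 0.042 for complex IV and -0.032 to 0.060 for complex V. The median of all genes ran from -0.0018 to 0.0066 with an array left out. It was furthest from 0, at 0.044, with each array scaled to a common 75th percentile.

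The settings run on assembly factors were chosen after seeing the data. The 11 factors called, all higher, became 5 with an offset of 0 (4 higher, 1 lower, against 5.58% of all genes called), 5 with local background subtracted (4 higher, 1 lower, against 6.89%), 3 in the authors' table (2 higher, 1 lower, against 3.72%) and 5 to 22 with an array left out (the 22 being 19 higher and 3 lower, against 14.7%), and their median ran from -0.0087 to 0.11 with an array left out.

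The labels number samples within a group without pairing them, and the differences between samples 1 and 2 of the groups correlated at 0.097 over all genes. With the replicate number as a block, 7 members (8.33%, against 7.2% of all genes) had an unadjusted p under 0.05. In that setting 0 genes passed the adjusted threshold. A block for slide or scan was not run. The headers name no batch, and the gain slopes, equal on both knockout arrays, cannot be told apart from genotype.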
